A study of Mus musculus with 2 samples.

Results

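The cells described here are the dividing cells of a dendritic cell cluster that remained in the spleens of mice lacking the transcription factor Batf3. They were chosen by the deposited per-cell labels as the Batf3-/- cells of transcriptome cluster 6 (cluster resolution 0.5) that were called in S or G2M phase of the cell cycle. The rule found 538 cells, of which 354 were in S and 184 in G2M, among 24343 cells in the series and 12119 in the Batf3-/- library (4.44%, 95% Clopper-Pearson interval 4.08 to 4.82). The same rule in the WT library found 784 of 12224 cells (6.41%), 474 in S and 310 in G2M, and these were the main comparator.

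The study compared live CD11c+MHCII+ splenocytes of 8-week-old female C57BL/6 mice, WT or Batf3-/-, by CITE-seq, in which droplet sequencing reads the mRNA and antibody-bound tags of each cell together. The Batf3-/- line lacks the gene in every cell of the animal and not in dendritic cells alone, the splenocytes of several mice of each genotype were pooled, T and B cells were depleted before the sort, and 1 library was made per genotype. By the study's methods, WT mice came from the Animal Resources Centre, and Batf3-/- mice were bought from Jackson Laboratories and bred in house. Genotype, source of the animals, library and pool therefore cannot be told apart, no value has a replicate, and no test between genotypes was possible. The intervals given cover counting error only, and "at least 2-fold" describes these 2 libraries. Cells had been assigned to clusters and phases from the same transcripts that are described here, so the comparisons between clusters and between phases are descriptions as well.

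Conventional type 1 dendritic cells (cDC1) take up material from dying cells and present its peptides on MHC class I to CD8+ T cells. Irf8 and Batf3 are the transcription factors that establish and hold their identity, and Xcr1, Clec9a, Cadm1 and Cd8a are their usual surface markers in mouse spleen, whereas Sirpa, Itgam and Irf4 mark the type 2 lineage (cDC2). Dendritic cells divide as precursors and continue to divide after they have seeded the spleen, so a cycling fraction is usual in this organ.

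Batf3 was first examined as a check of the labels. Cycling cluster 6 held 5 Batf3 UMIs in 5 of 538 Batf3-/- cells and 4449 Batf3 UMIs in 769 of 784 WT cells, which is 0.463 against 288 CPM (UMIs scaled to a common library total). Which part of the gene (GRCm38 chr1:191097847-191108945, plus strand) is deleted is not given in the sources used here. Depth was close in both groups, with a median of 19985.5 UMIs and 4018 genes per Batf3-/- cell and 19630 UMIs and 3917 genes per WT cell. The summed depth was 10807384 and 15440762 UMIs. Mitochondrial transcripts made up 3.69% and 3.77% of UMIs, and ribosomal protein transcripts 25.6% and 22.9%. Computed doublet calls marked 7 of 538 Batf3-/- cells (1.30%) and 56 of 784 WT cells (7.14%), and 2 of the 538 cells carried barcodes that were also present in the WT library, out of 56 barcodes shared by the libraries.

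The label was examined against markers. Irf8, the factor on which cDC1 depend, was read at 992 CPM in cycling Batf3-/- cluster 6 cells, 1901 CPM in cycling WT cluster 6 cells and 30.6 CPM in the cycling Batf3-/- cells of cluster 5, which carried cDC2 transcripts. Id2, an inhibitor of E protein factors that cDC1 require, was at 962, 982 and 265 CPM in the same order. Cd24a, a surface sialoprotein high on cDC1 and their precursors, was at 236, 220 and 52.4 CPM. Irf8 in cycling Batf3-/- cluster 6 cells was thus lower than in WT (log2 ratio -0.94, 95% interval -0.97 to -0.91) but 5.02 log2 units above cluster 5, while Id2 (-0.03) and Cd24a (0.10) were close to their WT levels. Mcemp1, a mast cell and myeloid membrane protein, was at 82.1 CPM against 7.97 CPM in WT and 152 CPM in cluster 5. Ms4a4c, a tetraspanning membrane protein of the Ms4a family, was at 175, 24.4 and 287 CPM. Mcemp1 and Ms4a4c therefore set these cells apart from their WT counterparts and not from cycling cDC2, in which both were higher.

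Of the 24 members of the cDC1 list, 9 were measured in the comparison with cycling Batf3-/- cluster 5, and 6 of these were at least 2-fold higher in cluster 6, where 3.86% of all 2671 genes were. Of these 6, 4 (Irf8, Rab7b, Cd8a and Naaa) were under 50 CPM in cluster 5 and were measured through their cluster 6 level, so the count is a description and no support. Among the members not measured, Clec9a was at 77.0 against 7.13 CPM and Xcr1 at 41.8 against 2.51 CPM, while Gcsam and Itgae were under 1 CPM in both. The authors' reference-based annotation called 285 of the 538 cells (53.0%) the CD8+ dendritic cell type DC.8+ and 220 (40.9%) the type DC.8-4-11B-, against 736 (93.9%) and 39 (4.97%) of the 784 WT cells. Another 16 cells (2.97%) were called common dendritic cell progenitors and 6 (1.12%) the monocyte type MO.6C-II+, against 6 (0.765%) and 1 (0.128%) of the WT cells.

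Against cycling WT cluster 6 cells, 93 of 2579 measured genes (3.61%) differed at least 2-fold, where a gene counted as measured if it averaged 50 CPM or more over both groups. Of these, 38 (1.47%) were higher and 55 (2.13%) lower in the Batf3-/- cells, and the median log2 ratio over all genes was 0.04, with 5th and 95th percentiles of -0.53 and 0.52. Among the lowest ratios were the cDC1 genes Gcsam, Cadm1, Gpr141b, Naaa and Xcr1, the lysosomal gene Ppt1, and BC028528 and Pdia5 of neither list. The plasma cell gene Jchain was also among them (-7.21), but 2299 of its 2323 WT UMIs were in 1 cell, and without doublet calls its ratio was -0.65, under 2-fold. Among the highest were Cd209a, members of the Ms4a and Tmem176 families, Ifitm6, Ifitm3 and Cybb. A gene low in 1 group could be measured through the other, so the counts over measured members of a list are given as descriptions, to be read beside these shares of all genes. All 55 lower and all 38 higher genes had the same direction in S and in G2M cells taken alone, and 47 and 29 of them were at least 2-fold apart in both phases. Among all genes, S cells alone had 39 of 2532 at least 2-fold higher (1.54%) and 58 lower (2.29%), 3.83% in all, and G2M cells alone had 39 of 2662 higher (1.47%) and 57 lower (2.14%). As a measure of how far the libraries differed in other dividing cells, 3 of 2722 genes (0.11%) were at least 2-fold apart between the genotypes in cycling cluster 5: Batf3 and the chemokine Ccl5 were lower (0.0735%), and Anxa3 was higher (0.0367%), in Batf3-/- cells. Of the 93 genes apart in cluster 6, 54 were measured in cycling cluster 5 and 1 of these was at least 2-fold apart there, and 7 of the 93 were so at any level.

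**Figure D1:**
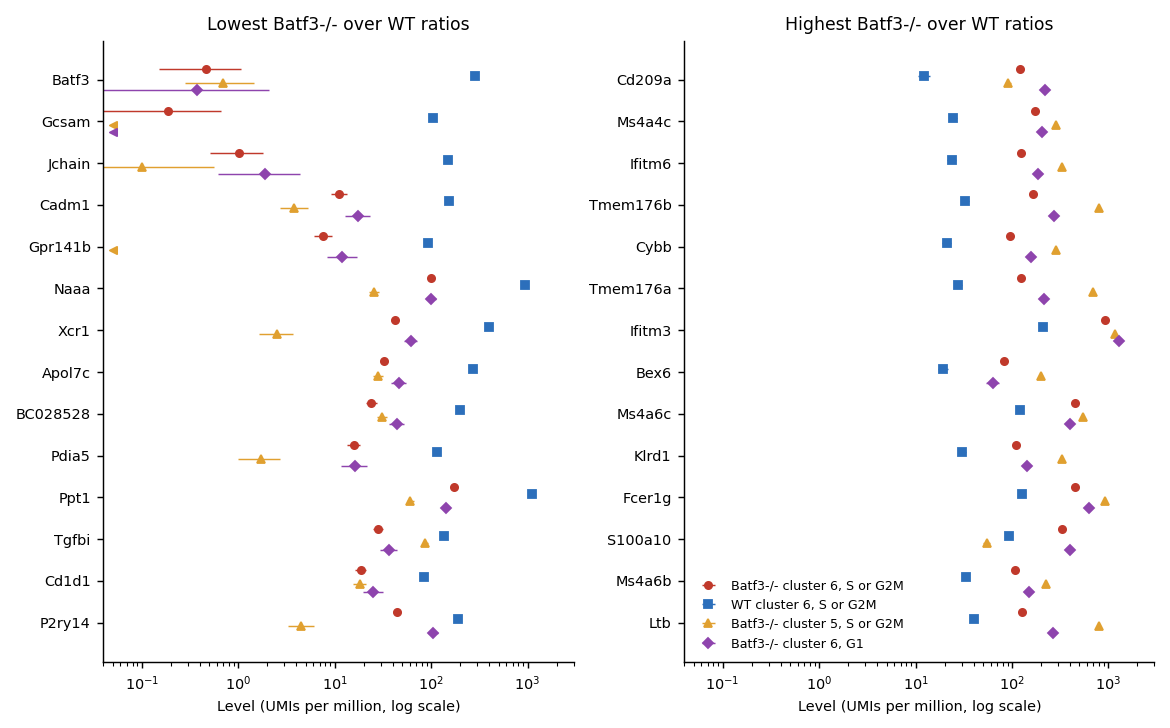
Levels, as CPM of summed UMIs (log x axis), of 14 genes among those with the lowest and 14 among those with the highest Batf3-/- over WT ratios (y axes) in cycling Batf3-/- cluster 6 cells, cycling WT cluster 6 cells, cycling Batf3-/- cluster 5 cells and Batf3-/- cluster 6 cells in G1, 1 point per gene and group with 95% Poisson intervals for counting error. Left-pointing triangles at the left edge mark 0 UMIs. Xcr1 lay at 41.8 CPM in the cycling Batf3-/- cluster 6 cells between 399 CPM in WT and 2.51 CPM in cluster 5, and Cd209a lay at 120, 12.4 and 91.0 CPM in the same order.

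Receptors and surface proteins of the cDC1 lineage were low but present. Xcr1 (GRCm38 chr9:123852315-123862029, minus strand), the receptor for the chemokine XCL1, was read at 41.8 CPM in Batf3-/- and 399 CPM in WT cycling cells (log2 ratio -3.26, -3.40 to -3.12), with -3.37 in S and -3.07 in G2M. Clec9a, which binds actin exposed on dead cells, was at 77.0 and 204 CPM (-1.41, -1.52 to -1.29). Both receptors were also near absent from cycling Batf3-/- cluster 5, at 2.51 and 7.13 CPM, so cluster 6 cells stood between both comparators. Cadm1, an adhesion molecule of cDC1, was at 11.1 and 152 CPM (-3.77, -4.05 to -3.51). Cd8a was at 148 and 411 CPM (-1.47, -1.55 to -1.39), with a ratio of -1.21 in S and -1.99 in G2M. Itgae, which encodes CD103, had 3 UMIs in all Batf3-/- cells and 180 in WT cells (-5.39, -7.68 to -3.82). Itgae was thus near absent, whereas Xcr1, Clec9a and Cd8a remained readable at this depth.

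Shares of cells with a UMI gave the same picture at a fixed depth. After each cell was thinned to 2000 UMIs, Xcr1 was detected in 6.69% of cycling Batf3-/- cluster 6 cells, 51.3% of WT cells and 0.359% of cycling Batf3-/- cluster 5 cells, and with all UMIs in 32.9%, 94.8% and 2.03%. Clec9a was detected in 13.9%, 33.8% and 0.599% of thinned cells, and in 69.5%, 93.1% and 5.73% with all UMIs. Cycling Batf3-/- cluster 5 had a median of 11247 UMIs per cell against 19985.5 in cluster 6. The shares in Batf3-/- cluster 6 lay above those of cluster 5 for both genes, with all UMIs and at the fixed depth. Free RNA was not measured, so its part in these shares was not tested. Irf8 was detected in 72.5%, 95.3% and 4.55% of thinned cells.

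Further members of the cDC1 list, which encode intracellular proteins and receptors, were lower too. Naaa, a lysosomal acid amidase, was read at 98.5 CPM in Batf3-/- and 945 CPM in WT cells (log2 ratio -3.26, -3.35 to -3.17). Gcsam, a signalling adaptor, had 2 UMIs in the Batf3-/- cells and 1597 in the WT cells (-9.13, -12.17 to -7.27), and none in cycling Batf3-/- cluster 5. Gpr141b, an orphan receptor, was at 7.59 and 93.3 CPM (-3.62). After the targeted gene, Gcsam was the gene of this list with the lowest ratio. Wdfy4, which cDC1 need to present cell-associated antigen, was at 197 and 466 CPM (-1.24), and at 212 CPM in cluster 5, so that it did not separate the clusters in this library. Rab7b, a small GTPase of late endosomes, was at 115 and 260 CPM (-1.18) and at 3.11 CPM in cluster 5. Tlr3, the receptor for double-stranded RNA, was at 34.0 and 91.1 CPM (-1.42). Rab7b and Tlr3 thus stayed well above cluster 5 while lying below WT. Ifi205, of the Ifi200 family (whose copies share sequence, so that read assignment among them is uncertain), was at 84.4 and 274 CPM (-1.70), and Havcr2, which encodes TIM-3, at 58.3 and 124 CPM (-1.09, and -0.95 in S cells alone). Btla, an inhibitory receptor, missed the 2-fold limit at 65.5 and 126 CPM (-0.94).

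Over the whole list, 18 of 24 cDC1 genes were measured. Of these, 14 were at least 2-fold lower, where 2.13% of all genes were, and none was at least 2-fold higher. The median log2 ratio was -1.45 against 0.04 over all genes. Batf3, Gcsam, Gpr141b, Cadm1, Tlr3 and Xcr1 were under 50 CPM in Batf3-/- cells and were measured through their WT level, so the count is a description and no support. Batf3 itself was 1 of the 14. Of the other 4 measured members, Irf8 (-0.94), Btla (-0.94), Id2 (-0.03) and Cd24a (0.10) did not reach 2-fold. Summed over all 24 genes, the list took 3230 CPM in cycling Batf3-/- cluster 6, 7437 CPM in WT and 763 CPM in cycling Batf3-/- cluster 5. Batf3 itself is part of these sums. Among members under the level limit, Cd36, a scavenger receptor, was at 5.09 and 84.8 CPM (-4.06), Tlr11 at 10.5 and 47.3 CPM (-2.18) and Tlr12 at 20.7 and 27.3 CPM (-0.40).

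Lysosomal and lipid-handling genes included several low members. Of 14 measured, 6 were at least 2-fold lower, where 2.13% of all genes were, and none higher (median -0.40). Ppt1, a lysosomal thioesterase, was at 175 CPM in Batf3-/- and 1115 CPM in WT cells (-2.68, -2.75 to -2.61). Dnase1l3, a secreted nuclease, was at 96.1 and 358 CPM (-1.90), and at 291 CPM in cycling Batf3-/- cluster 5. Plin2, which coats lipid droplets, was at 48.0 and 123 CPM (-1.36). The remaining lower members were Naaa, the acid lipase Lipa (-1.28) and the arylsulfatase Arsb (-1.16). The protease inhibitor Cst3, among the most abundant transcripts of dendritic cells, was close between genotypes at 16931 and 19148 CPM (-0.18), and Lamp1 (0.78) and Ctsh (0.60) lay on the other side of 0.

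Antigen presentation genes were read by class. Of 17 MHC class I genes measured, 3 were at least 2-fold lower, where 2.13% of all genes were, and none higher (median -0.43). These were Cd1d1, which presents lipids, at 18.6 and 83.7 CPM (-2.17, -2.39 to -1.96), and the class Ib genes H2-Q7 (102 and 297 CPM, -1.54) and H2-Q6 (45.4 and 111 CPM, -1.29), whose reads cannot be fully separated between near-identical copies. In S cells alone 15 were measured and H2-Q7 (-1.24) was the only 1 at least 2-fold lower, with H2-Q6 at -0.95 and Cd1d1 (-2.30) under the level limit. H2-K1 (-0.56), Tap1 (-0.39) and B2m (-0.24) were below their WT levels by less than 2-fold. None of the 11 MHC class II genes measured reached 2-fold in either direction (median -0.22, range -0.54 to 0.33), and Cd74, the invariant chain, was at 14848 and 16475 CPM.

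Receptors and maturation genes showed a short list of differences. P2ry14, a receptor for UDP-sugars, was at 44.5 and 188 CPM (-2.08), and Flt3, the receptor for the growth factor of dendritic cells, at 66.3 and 138 CPM (-1.06, -1.18 to -0.93). Flt3 lay below both comparators, since cycling Batf3-/- cluster 5 was at 132 CPM. Flt3 was the only 1 of 9 cytokine receptors measured that reached 2-fold, where 3.61% of all genes did. Of the maturation list, 3 genes were measured, and the co-stimulatory ligand Cd86 (50.5 and 166 CPM, -1.72) and the tetraspanin Cd81 (61.4 and 240 CPM, -1.96) were lower. Of all genes, 2.13% were at least 2-fold lower. Ccr2, which guides monocytes and some precursors out of the bone marrow, was higher at 155 and 77.4 CPM (1.00, and 0.72 in S cells alone). Ccr2 was low in cycling Batf3-/- cluster 5, at 24.5 CPM.

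**Figure D2:**
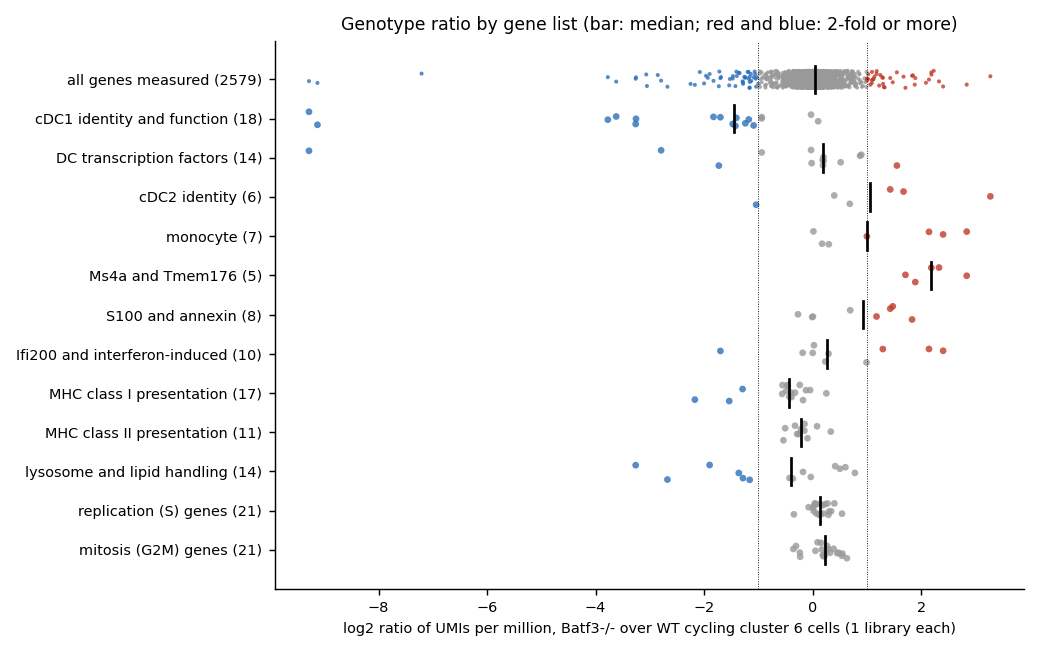
Log2 ratio of Batf3-/- over WT in cycling cluster 6 (x axis) for all measured genes and for the measured members of each gene list (y axis), 1 point per gene. Bars are medians, dotted lines stand at 2-fold either way, and genes past them are red (higher) or blue (lower). Of the cDC1 list 14 of 18 measured members lay at least 2-fold below 0 (median -1.45), where 2.13% of all genes did. The 5 of 9 Ms4a and Tmem176 genes measured lay at least 2-fold above 0, where 1.47% of all genes did. No replication or mitosis gene reached 2-fold, in groups both chosen by phase calls that rest on such genes.

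Among the higher genes, the Ms4a and Tmem176 list had 5 of its 9 members measured, all at least 2-fold higher, where 1.47% of all genes were. Of these 5, 4 averaged under 50 CPM in WT and were measured through their Batf3-/- level, so the count is no support for a change of the list. Among the members not measured, Ms4a4b was at 14.4 and 3.69 CPM and Ms4a7 at 1.39 and 1.23 CPM. These genes encode small membrane proteins with several membrane passes that are common in myeloid cells, and the Ms4a copies lie side by side on GRCm38 chromosome 19, with Ms4a4c at chr19:11404770-11427246, Ms4a6c at chr19:11469366-11482192 and Ms4a6b at chr19:11516512-11531256. Ms4a4c was at 175 CPM against 24.4 CPM in WT (2.84, 2.68 to 3.00), with 3.15 in S and 2.44 in G2M. Ms4a6c was at 447 and 120 CPM (1.89), and Ms4a6b at 109 and 33.2 CPM (1.71). Tmem176a (124 and 27.3 CPM, 2.19) and Tmem176b (164 and 32.7 CPM, 2.33) overlap at their starts on opposite strands of chromosome 6, where reads can be told apart by strand only, and their ratios without doublet calls were 3.07 and 3.03. All 5 genes were higher still in cycling Batf3-/- cluster 5, where Tmem176b reached 797 CPM.

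The cDC2 list had members higher and members lower than in WT. Cd209a, a C-type lectin of cDC2 and monocyte-derived cells, was at 120 CPM in Batf3-/- and 12.4 CPM in WT cycling cluster 6 cells (3.27, 3.05 to 3.50), and at 91.0 CPM in cycling Batf3-/- cluster 5. It was detected in 17.8% of thinned Batf3-/- cells, 2.30% of WT cells and 11.0% of cluster 5 cells, and with all UMIs in 63.6%, 9.44% and 32.0%. The lymphotoxin gene Ltb was at 128 and 40.2 CPM (1.68, and 2.38 without doublet calls), and S100a4, a calcium-binding protein, at 260 and 96.6 CPM (1.43, with 0.76 in G2M cells alone and 2.11 without doublet calls). Cd209a was thus above its cluster 5 level, while Ltb and S100a4 stayed far below theirs, at 795 and 2427 CPM. Clec12a, an inhibitory lectin, was lower at 65.0 and 134 CPM (-1.04). Sirpa, Itgam and Irf4, the defining genes of cDC2, were under the level limit at 23.8, 22.9 and 2.96 CPM, against 10.4, 2.40 and 2.33 CPM in WT. Their ratios to WT were 1.20 (0.91 to 1.49), 3.25 (2.75 to 3.79) and 0.34 (-0.39 to 1.07), so the counting intervals of Sirpa and Itgam lay above 0. By phase, Sirpa was at 1.59 in S and at 0.40 (-0.11 to 0.91) in G2M, where its interval held 0. In cycling Batf3-/- cluster 5 Sirpa, Itgam and Irf4 were at 209, 29.0 and 21.3 CPM, and Itgam was thus close to its cluster 5 level (-0.34). Of 6 cDC2 genes measured, 3 were at least 2-fold higher and 1 lower than in WT (median 1.06), where 1.47% and 2.13% of all genes were. Against cycling Batf3-/- cluster 5, 7 of 9 were at least 2-fold lower (6.07% of all genes were) with a median of -2.26. Cd209a and Ltb were under 50 CPM in WT and were measured through their Batf3-/- level. In the comparison with cluster 5, Sirpa, Clec4a2 and Cd7 were under 50 CPM in cluster 6 and were measured through their cluster 5 level. Both counts are thus descriptions and no support.

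Members of the monocyte list and an Fc receptor adaptor were among the higher genes. Ifitm3, an interferon-induced membrane protein that blocks virus entry, was at 924 and 209 CPM (2.14, 2.09 to 2.20), and its relative Ifitm6 at 125 and 23.6 CPM (2.40). Fcer1g, the signalling chain of Fc receptors, was at 455 and 126 CPM (1.85), and it was 1 of 2 members measured of the 7 on the Fc receptor list, beside the adaptor Tyrobp (0.53). The 5 receptors of the list were under the level limit and lay on both sides of 0. Fcgr2b was at 27.8 and 42.0 CPM (-0.60) and Fcgrt at 33.4 and 63.9 CPM (-0.94), while Fcgr1, Fcgr3 and Fcgr4 were at 1.5 CPM or less in both. Cybb, the membrane subunit of the phagocyte NADPH oxidase, was at 96.3 and 21.1 CPM (2.19), and its membrane partner Cyba had a ratio of 0.26. Ifitm3, Ifitm6, Fcer1g and Cybb were all higher still in cycling Batf3-/- cluster 5, at 1159, 330, 920 and 285 CPM. They are thus shared with cycling cDC2. Of 7 monocyte genes measured, 4 were at least 2-fold higher, where 1.47% of all genes were, and none lower (median 1.00). The higher ones were Ms4a4c, Ifitm3, Ifitm6 and Ccr2. Of these, Ms4a4c and Ifitm6 were under 50 CPM in WT and were measured through their Batf3-/- level, so the count is a description and no support. The other measured members were Plac8 (0.30), Lyz2 and the lysosomal glycoprotein Cd68, at 132 and 131 CPM (0.01). The monocyte and macrophage genes that follow were under the level limit. Cx3cr1 was at 12.0 against 2.98 CPM in WT (2.01, 1.52 to 2.53), Csf1r at 10.5 against 4.34 CPM (1.27, 0.82 to 1.73) and Ly6c2 at 7.12 against 10.5 CPM (-0.56), while Cd14, Fcgr1 and F13a1 were at 1.85, 0.37 and 1.39 CPM (2.98, 0.0648 and 0.712 in WT) and Vcan had no UMI in either. Ly6c2 changed direction by phase, at 0.31 in S and -4.11 in G2M. The G2M interval of Csf1r held 0 (0.75, -0.09 to 1.60). Chil3 had 26 UMIs in Batf3-/- and none in WT cells, and the Fc receptor Fcgr3 had 16 and 4 (2.51, 0.88 to 4.55). In Batf3-/- cluster 15, the monocytes of the study, Cx3cr1 was at 287, Csf1r at 449.5 and Ly6c2 at 917 CPM. The monocyte list summed to 3231 CPM in Batf3-/- and 1816 CPM in WT cells. Lyz2, at 253 and 224 CPM, had a ratio of 0.68 in S and -1.12 in G2M, and 10 of the 538 cells held 48.6% of its UMIs.

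The promoters of 2 of these higher genes held a heptamer of the form TGANTCA, identical in form on both strands. It is a loose form of the motif of AP-1 factors, the family of Batf3, with any base (N) at its centre. A match here is thus a match of letters and not a call of an AP-1 site. The central base was A in Cybb and T in Ifitm3, and binding to either match was not tested. Both promoters are shown 5′ to 3′ as the 250 bases upstream of the RefSeq start on GRCm38.p6, with the heptamer in capitals. The Cybb promoter is chrX:9469325-9469574, minus strand, with the match starting 139 bases before the start, and the Ifitm3 promoter is chr7:141010745-141010994, minus strand, with the match 105 bases before it.
Cybb: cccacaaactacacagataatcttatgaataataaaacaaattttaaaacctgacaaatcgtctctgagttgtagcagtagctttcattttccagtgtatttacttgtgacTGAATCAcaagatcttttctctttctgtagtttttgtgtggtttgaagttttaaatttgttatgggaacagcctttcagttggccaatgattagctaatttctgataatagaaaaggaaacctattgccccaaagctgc
Ifitm3: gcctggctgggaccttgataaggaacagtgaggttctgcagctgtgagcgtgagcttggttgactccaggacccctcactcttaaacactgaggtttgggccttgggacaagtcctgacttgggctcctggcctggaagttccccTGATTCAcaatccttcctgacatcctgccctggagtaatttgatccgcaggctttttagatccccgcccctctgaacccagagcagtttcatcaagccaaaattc
The heptamer was in 7.82% of 27025 gene promoters of this length and in 106 of the 2065 matched genes of the genotype comparison (5.13%). It was in 5 of 30 matched genes that were at least 2-fold higher (16.7%, 5.64 to 34.7) and in 6 of 47 that were lower (12.8%, 4.83 to 25.7). The windows of Xcr1, Naaa, Ms4a4c and Mcemp1 did not hold these letters.

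S100 and annexin genes, which encode calcium-binding proteins of the membrane and cytoskeleton, included members above both comparators. S100a10, the partner of annexin A2, was at 328 CPM against 92.2 CPM in WT (1.83, 1.74 to 1.92) and 54.7 CPM in cycling Batf3-/- cluster 5. Anxa2 was at 449, 161 and 209 CPM in the same order, and the intermediate filament gene Vim at 1376, 560 and 473 CPM. S100a10, Anxa2 and Vim thus exceeded their levels in both comparators by at least 1.5-fold. S100a6 was at 290 and 128 CPM (1.18) but at 992 CPM in cluster 5. Of 8 genes of the list measured, 4 were at least 2-fold higher than in WT, where 1.47% of all genes were. None was at least 2-fold lower (median 0.93), with S100a11 at -0.27 and Anxa5 at 0.69.

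Transcription factors past 2-fold included Batf3, Mycl and Pou2f2, where 3.61% of all genes were past it. The median log2 ratio of the 14 measured was 0.19. Mycl, a Myc family factor that supports dendritic cell expansion, was at 41.0 and 136 CPM (-1.73, -1.88 to -1.58). Pou2f2, the octamer-binding factor Oct2, was higher at 104 and 35.4 CPM (1.55, 1.40 to 1.70). Klf4, a factor of myeloid and cDC2 differentiation, was at 129 and 69.2 CPM (0.90), and Zeb2, which opposes the cDC1 fate, was under the level limit, with 11.7 CPM in WT, a log2 ratio of 1.59, and 151 CPM in cycling Batf3-/- cluster 5. Batf, a relative of Batf3 able to replace it in some settings, was at 20.7 and 18.1 CPM. In the AP-1 family, Atf3, a stress-induced member, was at 96.0 and 47.3 CPM (1.02, and 0.82 in S cells alone), and Jun at 859 and 746, and Fos at 513 and 617 CPM were close between genotypes. Apart from Atf3, which was higher, and Batf3, which was lower, none of the 7 AP-1 genes measured reached 2-fold, where 3.61% of all genes did.

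Where cycling WT cluster 6 and cycling Batf3-/- cluster 5 were at least 2-fold apart, the levels of these cells mostly lay between them. The comparisons share the 538 cells, so the positions are read side by side and not as independent results. Of 2668 genes measured, 375 were at least 2-fold apart between the comparators, and 307 of these (81.9%) lay between them in the Batf3-/- cluster 6 cells. Of the 165 genes higher in WT cluster 6, 117 (70.9%) lay between, and of all 165, 98 were within 1.5-fold of the WT cluster 6 level and 22 within 1.5-fold of cluster 5. Of the 210 genes higher in cluster 5, 190 (90.5%) lay between, and of all 210, 116 were within 1.5-fold of WT cluster 6 and 32 within 1.5-fold of cluster 5. By list, 12 of 15 cDC1 genes, 7 of 8 cDC2 genes and the 5 measured Ms4a and Tmem176 genes lay between, against 4 of 13 genes of the published cDC2a signature, 6 of 10 of the published cDC2b signature and 2 of 13 mitosis genes. Beyond both comparators by at least 1.5-fold were 15 genes above and 20 below. Above lay S100a10, Vim, Anxa2, Ccr2, Atf3 and the transferrin gene Trf (98.3, 46.1 and 31.9 CPM), with Lgals1, which encodes galectin-1, at 223, 125 and 71.2 CPM. Below lay Flt3, Dnase1l3, H2-Q7 and Tgfbi, an extracellular matrix protein read at 28.3, 135 and 87.2 CPM, together with Apoe at 17.4, 35.6 and 115 CPM.

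**Figure D3:**
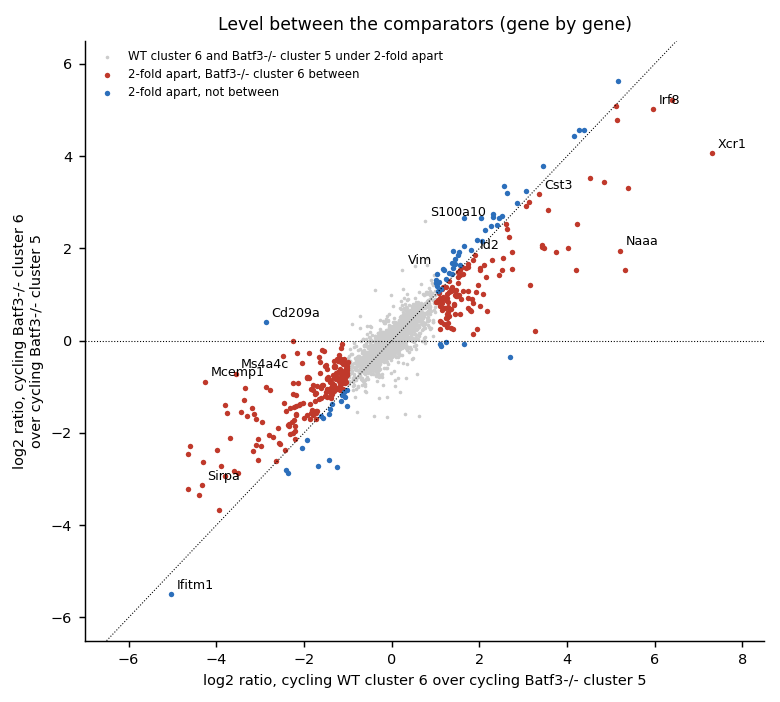
Each point is 1 of 2668 genes, with the log2 ratio of cycling WT cluster 6 over cycling Batf3-/- cluster 5 on the x axis and the log2 ratio of cycling Batf3-/- cluster 6 over the same cluster 5 cells on the y axis, so both axes share cluster 5. The 375 genes whose comparators were at least 2-fold apart are coloured, and 307 of them (81.9%, red) lay between the level of WT cluster 6 (diagonal) and that of cluster 5 (horizontal line), with the rest in blue.

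The position was also read cell by cell. After thinning to 2000 UMIs, the summed UMIs of the cDC1 list had a mean of 6.56 (SD 3.61, over cells) and a median of 6 in cycling Batf3-/- cluster 6, a median of 15 in WT, and a mean of 1.43 in cycling Batf3-/- cluster 5. The cDC2 list had means of 1.83, 1.04 and 9.73 in the same order. With the limit for each list at 4 UMIs, the 95% quantile of cycling Batf3-/- cluster 5 for the cDC1 list and of cycling WT cluster 6 for the cDC2 list, 351 of 538 cells (65.2%) were above the cDC1 limit only, 24 (4.46%) above the cDC2 limit only, 144 (26.8%) above neither and 19 (3.53%, 2.14 to 5.46) above both. In WT, 16 of 784 cells (2.04%) were above both and 95.9% above the cDC1 limit only, and in cycling cluster 5, 2.28% of 835 Batf3-/- cells and 8.70% of 644 WT cells were above both. The cDC1 list holds the deleted gene Batf3, at 0.703 CPM in cycling Batf3-/- cluster 5 and 186 CPM in cycling WT cluster 5. Batf3 thus raises the cDC1 sums of WT cells, and how much of the WT shares rests on it was not tested. These classes are ranges of a score and not cell types, and 30.9% of the Batf3-/- cells lay within 1 UMI of the cDC1 limit. The quantiles, and so the limits, moved with the depth and the cells kept. With cDC1 and cDC2 limits of 3 and 2 UMIs at 1000 UMIs per cell, the share above both was 2.42% (2.30% in WT). With limits of 9 and 8 UMIs at 5000 UMIs per cell it was 7.66% (3.09% in WT), and with limits of 4 and 3 UMIs without doublet calls it was 8.29% (1.79% in WT). Across the 538 cells, the sums of both lists had a Spearman correlation of -0.21 at this fixed depth, against -0.13 in the 784 WT cells, which is given as a description of sparse counts. Of the Batf3-/- cells, 46.1% had a cDC1 sum at or above 7 UMIs, the 5% quantile of WT.

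**Figure D4:**
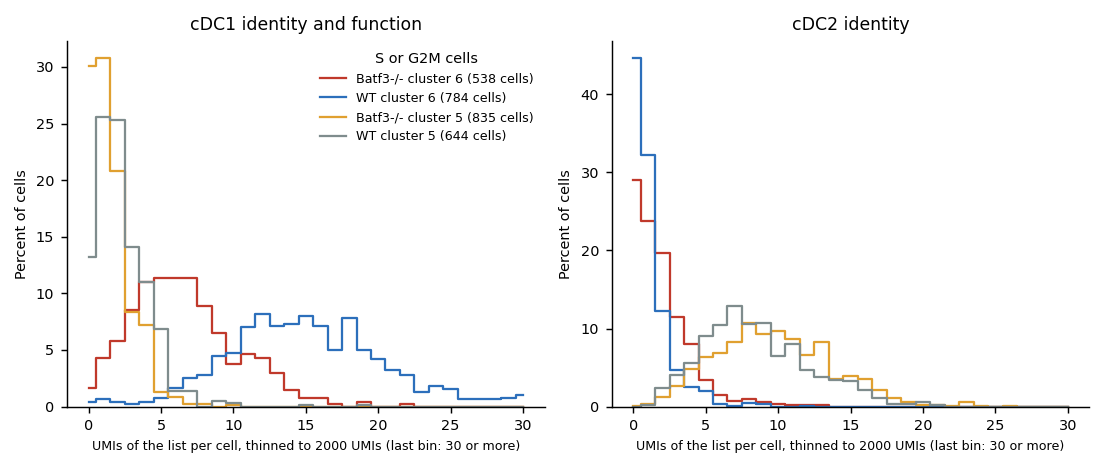
Percent of cells (y axis) by summed UMIs of the cDC1 list and of the cDC2 list (x axes) after thinning each cell to 2000 UMIs, for cycling Batf3-/- cluster 6, cycling WT cluster 6 and the cycling cluster 5 cells of both libraries, drawn as step lines with 30 or more UMIs in the last bin. The cDC1 sums of the Batf3-/- cluster 6 cells have a median of 6 UMIs and lie between those of WT (median 15) and cluster 5, and their cDC2 sums (mean 1.83) lie near those of WT (mean 1.04). The cDC1 list holds Batf3 itself.

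The cells called DC.8+ and DC.8-4-11B- by the authors' annotation differed within the 538. Against the 285 DC.8+ cells, the 220 DC.8-4-11B- cells had Xcr1 at 24.3 against 57.4 CPM (-1.24), Tmem176b at 247 against 103 CPM (1.26) and Ifitm3 at 1286 against 613 CPM (1.07). All 19 mitosis genes measured were at least 2-fold lower in the DC.8-4-11B- cells (median -2.11), and none of the 12 cDC1 genes above the level limit was (median -0.45). Xcr1 was under that limit there. Over all genes, 17 of 2574 were at least 2-fold higher (0.66%) and 55 lower (2.14%). The annotation was made from the same transcripts, so this is a description of what it separates. With the comparison between genotypes limited to DC.8+ cells, 13 of 18 cDC1 genes were at least 2-fold lower in Batf3-/- cells (median -1.27), where 2.03% of all genes were lower and 1.6% higher. Xcr1 was at 57.4 and 413 CPM (-2.85), and the ratios of Naaa, Cd209a and Ms4a4c were -3.11, 3.76 and 3.06. The genotype differences were thus also read in the cells whose annotation was the same.

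The cell cycle genes themselves were close between genotypes. Of 21 replication genes and 21 mitosis genes measured, none reached 2-fold against WT, with medians of 0.14 and 0.22. Both groups were chosen by S or G2M calls, which rest on genes of this kind. This closeness is thus a description and no support for equal cycling. In DC.8+ cells alone, 5 of 24 mitosis genes were at least 2-fold higher in Batf3-/- cells (median 0.68). Pcna, the sliding clamp of replication, was at 114 and 110 CPM, and Mcm5, a subunit of the replicative helicase, at 140 and 138 CPM. Mki67, the proliferation antigen Ki-67, was at 298 and 248 CPM, and Top2a, a topoisomerase of dividing cells, at 275 and 210 CPM. In Batf3-/- cluster 6 cells called G1, Mki67 was at 15.1 and Top2a at 6.02 CPM. The phase calls rest on genes of this kind, so this low level is a description of the calls. The D cyclin Ccnd1, which drives entry into the cycle, was at 496 and 264 CPM (0.91) and at 1416 CPM in cycling Batf3-/- cluster 5. The anti-apoptotic gene Bcl2a1b, one of several copies that share sequence, was at 333 and 156 CPM (1.09, and 0.58 in G2M cells alone). Its copies Bcl2a1a (137 and 173 CPM, -0.33) and Bcl2a1d (277 and 243 CPM, 0.19) did not reach 2-fold.

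Cluster 6 held a larger non-cycling fraction in the Batf3-/- library. G1 calls made up 189 of 727 Batf3-/- cluster 6 cells (26.0%, 22.8 to 29.3) and 13 of 797 WT cluster 6 cells (1.63%, 0.871 to 2.77). Within the cycling cells, S made up 65.8% (61.6 to 69.8) in Batf3-/- and 60.5% (56.9 to 63.9) in WT. The WT library had its non-cycling cDC1 in cluster 4, with 2202 cells of which 92.0% were in G1, and the Batf3-/- library had 31 cells there. With the cDC1 clusters 4, 6, 12, 17 and 18 of the study combined, G1 made up 31.3% of 792 Batf3-/- cells and 71.3% of 3559 WT cells, so the direction depends on which clusters are counted. Phase scores lay near the limit in 46 of the cycling Batf3-/- cells (larger score under 0.05). Recomputed phases put 537 of the 538 cells in S or G2M again.

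**Figure D5:**
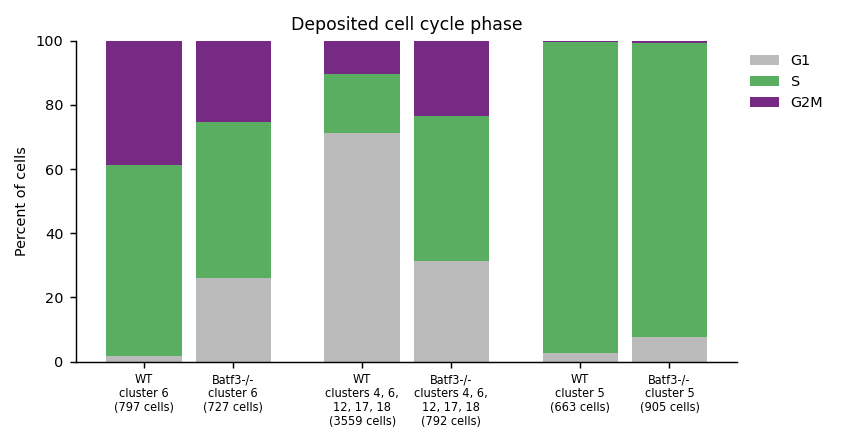
Stacked bars of the percent of cells (y axis) in G1, S and G2M for cluster 6, for the cDC1 clusters combined and for cluster 5 in the WT and Batf3-/- libraries, with no error bars. G1 made up 26.0% of cluster 6 in Batf3-/- and 1.63% in WT, but 31.3% and 71.3% when clusters 4, 6, 12, 17 and 18 were combined.

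Cycling and G1 cells of Batf3-/- cluster 6 differed in 143 of 2537 genes (5.64%) by at least 2-fold, 131 higher (5.16%) and 12 lower (0.473%) in the cycling cells. The phase calls rest on replication and mitosis genes, and all 13 replication genes and all 12 mitosis genes measured were higher, with medians of 2.69 and 3.66. The lower genes were led by Cxcl9 and Cxcl10, interferon-induced chemokines that attract activated T cells. Cxcl9 was at 58.4 CPM in cycling and 610 CPM in G1 cells (-3.38), and Cxcl10 had a ratio of -2.24. The ratio of Cxcl9 to WT of -1.83 in cycling cells was -0.30 when G1 cells of both libraries were included. Cd81 (61.4 and 158 CPM, -1.37), P2ry14 (44.5 and 105 CPM) and Ltb (128 and 267 CPM, -1.06) were also lower in cycling cells. In G1 cells of Batf3-/- cluster 6, Xcr1 was at 61.3, Clec9a at 103, Cd209a at 219, Ms4a4c at 204 and Ifitm3 at 1295 CPM. The 13 WT cluster 6 cells in G1 had Xcr1 at 229, Clec9a at 139, Cd209a at 209, Ms4a4c at 49.8 and Ifitm3 at 687 CPM, from 10 to 138 UMIs a gene. Cd209a, Clec9a and Ifitm3 were thus less than 2-fold apart between genotypes in G1, in a WT group of few cells.

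Against cycling Batf3-/- cluster 5, 265 of 2671 genes (9.92%) were at least 2-fold apart, 103 higher and 162 lower in cluster 6. Irf8 and Rab7b were among the 10 highest ratios, at 5.02 and 5.21, beside mitosis genes such as Ube2c (5.62) and Birc5. Cluster 5 was nearly all in S (99.2% of its 837 cycling cells), and all 12 mitosis genes measured were at least 2-fold higher in cluster 6 (median 2.49). Among the lowest were Ifitm1, at 6.11 against 274 CPM (-5.49), the factor Sox4, at 13.2 against 169 CPM (-3.68), S100a4 (-3.22) and Sirpa (-3.14). With S cells alone, 78 genes were higher and 159 lower of 2653.

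Antibody tags were read with a limit, since the 11 deposited tag rows carry no names and were matched to genes by correlation over WT cells. The row matched to Cd8a (Pearson correlation 0.726) had a median of 44 raw tags in cycling Batf3-/- cluster 6 cells, 80 in WT, 42 in cycling Batf3-/- cluster 5 and 40 in cycling WT cluster 5. The normalised difference of cluster 6 to cluster 5 was 0.0227 in Batf3-/- and 0.347 in WT, on a natural log scale normalised per library. The median of the tag that matched Cd8a was thus near its cluster 5 level in the Batf3-/- cells. Its upper quartile and 95% quantile were higher, at 60 and 116 raw tags against 49 and 77.2 in cycling Batf3-/- cluster 5. The paper set tag values under an antibody threshold to 0, and the tags here were read without a threshold. Cd8a mRNA was at 148 CPM against 36.8 CPM in cluster 5. The row matched to Cd4 differed by -0.133 and -0.142. A further row followed both Xcr1 (0.727) and Cd24a (0.653) over WT cells. Over Batf3-/- cells the same row followed Cd24a (0.478) more closely than Xcr1 (0.256). It was left unnamed, and its values are not read as retained XCR1 protein. It had medians of 117 tags in Batf3-/- and 139 tags in WT cycling cluster 6 and 38 tags in cluster 5 of each library.

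Transcripts of other cell types were low in these cells. None of the 19 markers of T cells, B cells, NK cells, red cells and others that were in the files reached the level limit, and the whole list summed to 47.7 CPM in Batf3-/- and 46.6 CPM in WT cycling cluster 6. The B cell gene Cd79b was the highest of them in Batf3-/- cells (14.2 against 7.06 CPM in WT), and the B cell gene Ms4a1 the highest in WT (19.04 against 10.7 CPM in Batf3-/-). Siglech, a defining gene of plasmacytoid dendritic cells, was at 1.11 and 1.88 CPM, and of the 15 genes of that list only Bst2 was measured (149 and 140 CPM). Without doublet calls, 89 of the 93 genes at least 2-fold apart between genotypes were still so, in the same direction.

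Among further genes with extreme ratios, Apol7c, an apolipoprotein L family member of cDC1, was at 32.5 and 272 CPM (-3.07), BC028528 at 24.1 and 200 CPM (-3.05), and the protein disulphide isomerase Pdia5 at 15.7 and 114 CPM (-2.85). On the high side lay Bex6 (82.4 and 19.4 CPM, 2.09) and the NK receptor chain Klrd1 (111 and 30.2 CPM, 1.88). Apol7c, BC028528 and Bex6 were read at 28.2, 30.8 and 201 CPM in cycling Batf3-/- cluster 5.

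Marker levels in other clusters of the Batf3-/- library place these cells among their neighbours. Irf8 was at 1439 CPM in the 31 Batf3-/- cells of cluster 4, at 15.5 CPM in cluster 0, 110 in cluster 2, 64.9 in cluster 3 and 2996 in cluster 14, which the study annotated as plasmacytoid. Xcr1 was at 259 CPM in the 31 cluster 4 cells and between 0.9 and 5.9 CPM in clusters 0, 2, 3, 14 and 15. Of these Batf3-/- clusters, cluster 4 thus had a higher Xcr1 level than cycling cluster 6 and the others had lower ones. Clec9a was at 217 CPM in cluster 4 and 125 CPM in cluster 14. Cd209a was at 524 CPM in cluster 2 and 284 CPM in cluster 3, and Ms4a4c was at 271 CPM in cluster 0.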

How the data were processed

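CD11c+MHCII+ splenocytes were sequenced by the authors with 10x Genomics Chromium version 3 chemistry, 1 library per genotype. Per the study's methods and the submitters' processing notes, reads were demultiplexed with bcl2fastq 2.2.0, counted against GRCm38 (mm10) with Cell Ranger, evened in depth between libraries and filtered, clustered and scored with Seurat 3.0.5. The deposited tables hold UMI counts per gene and tag counts per antibody row, per-cell labels, the fraction of mitochondrial and ribosomal UMIs, phase scores (a deposited score per cell), and tag values that the authors normalised per library as a natural log of centred ratios.

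Here UMI counts were summed over the cells of a group and given as CPM with exact Poisson intervals, and ratios of sums as log2 with exact binomial intervals (Python 3.11.15, scipy 1.17.1, 95% level). A gene was measured where its mean over the groups compared was at least 50 CPM with at least 20 UMIs, and at least 2-fold is the limit of description. A count of 0 was set to a floor of 3 counts in ratios. No test was run, since each genotype has 1 library. Doublets were called with Scrublet in scanpy 1.11.5 (expected rate 10%), kept, and left out as an alternative. Scripts were tested on simulated data. All 24343 cell totals matched the deposited ones.

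The members and the gene lists were chosen with earlier results of these data known, so no list is independent evidence. Genes named are members of those lists, the genes with the 15 highest and 15 lowest ratios between genotypes, the 10 at each end of the comparisons within the Batf3-/- library, and the 10 furthest above and 10 furthest below both comparators, Anxa3 in cluster 5 being chosen after its values were seen. Alternatives were other limits, phases, depths, scalings, comparators and doublet removal. A few genes that meet these rules are not reported here. Deposited normalised expression values were not used. Promoter sequences came from RefSeq.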

Additional observations from a re-analysis of the deposited data

How the results depend on the processing

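No ratio among the 93 genes at least 2-fold apart between genotypes changed sign, but the order of the G1 shares turned with the clusters counted, and Lyz2, under 2-fold, was at 0.68 in S and -1.12 in G2M. Of the alternative values of the main counts and shares, 128 were close to the values given (a count within 1.5 times) and 18 were not. The count of genes at least 2-fold apart between genotypes, 93, was 190 at a level limit of 20 CPM, 45 at 100 CPM and 216 at a 1.5-fold limit. MHC class I genes lower were 1 and not 3 in S cells alone, replication genes higher were 1 and not 0 after thinning to 2000 UMIs, and mitosis genes higher were 5 and not 0 in DC.8+ cells alone. Against cluster 5, the count of 265 was 522 at 20 CPM, 143 at 100 CPM and 735 in G2M cells alone, where cluster 5 has 7 cells. Against G1 cells, the count of 143 was 343 at 20 CPM and 66 at 100 CPM. The share of genes between the comparators, 81.9%, was 88.8% with clusters 5, 7 and 10 as the cDC2 end, 76.9% with ends 1.5-fold apart and 86.1% in S cells alone. The share of cells above both list limits, 3.53%, was 2.42% at 1000 UMIs (2.30% in WT), 7.66% at 5000 UMIs and 8.29% without doublet calls, each with its own limits. G1 shares over clusters 4, 6, 12, 17 and 18 were 31.3% in place of 26.0% in Batf3-/- and 71.3% in place of 1.63% in WT. The level, fold and depth limits act by their own construction, and the cause was not tested for the rest. The values in DC.8+ cells, the positions in S cells and the G1 shares over 5 clusters were chosen after seeing the data.

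No paired analysis was possible because each genotype has 1 library. For the same reason no replicate was left out, and none of these alternatives speaks to variation between animals. Precision is limited by counting error in low genes such as Gcsam and Itgae, with 2 and 3 UMIs.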
